A study of Arabidopsis thaliana with 9 samples.

Results

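The plastid-encoded photosynthesis genes are the 46 genes of the Arabidopsis plastid genome whose products form the photosystems, the cytochrome b6f complex, the ATP synthase, the NAD(P)H dehydrogenase-like (NDH) complex and the large subunit of Rubisco, with 2 assembly factors of photosystem I, ycf3 and ycf4. The rule that chose them uses gene symbols and no measured value, though it was written with earlier results of these data known. Each was measured by 1 probe set, which gives 46 of the 22746 probe sets tested. By complex there were 15 genes of photosystem II, 7 of photosystem I, 6 of cytochrome b6f, 6 of the ATP synthase, 11 of NDH and rbcL.

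Transcript levels came from 9 Affymetrix ATH1 arrays of RNA from whole 10-day-old Col-0 seedlings, with 3 biological replicates in each of 3 groups. The groups were wild type grown with 30 µM hyperphyllin in DMSO, amp1-13 mutants grown with DMSO, and wild type grown with DMSO. Hyperphyllin is a small molecule, and amp1-13 is an allele of AMP1, which encodes a putative glutamate carboxypeptidase. The compound and the mutation were each set against wild-type DMSO, which both comparisons share, and then against each other. All seedlings grew in liquid medium with 1% sucrose and 1% DMSO at 26 °C, under 16 h of light and 8 h of dark, per the treatment labels and protocols. The free-text descriptions of the amp1-13 and wild-type DMSO arrays call those seedlings untreated, whereas their source and treatment labels name the solvent, which is followed here. No group without solvent was analysed, so an effect of DMSO was not tested. The AMP1 transcript itself was not analysed here, which leaves the genotype labels unchecked at that gene. How many plants were pooled for an array is not stated in the labels.

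The plastid genome keeps the genes of the reaction centre proteins and other core subunits, whereas most other subunits of the same complexes are encoded in the nucleus and imported. Most plastid genes lie in clusters that are transcribed together into long RNAs, which are then cut, trimmed and edited. A bacterial-type plastid RNA polymerase with nuclear-encoded sigma factors transcribes most photosynthesis genes, and a phage-type polymerase from the nucleus serves many of the genes for the plastid's own transcription and translation. RNA stability, set largely by nuclear-encoded RNA-binding proteins, contributes strongly to plastid transcript levels. In whole seedlings, a larger share of green cells and more plastid RNA in each green cell cannot be told apart. Plastid RNAs mostly lack stable poly(A) tails and the labels do not say which primer made the cDNA, so a signal here reflects labelled plastid RNA.

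Values below are log2 RMA signals, and differences are log2 differences with the standard error (SE) of the limma fit on 3 arrays per group. A gene is called higher or lower where limma's p, adjusted by Benjamini-Hochberg over all 22746 probe sets, was under 0.05. The probe sets of ndhB, ndhF and ndhH were dim, below the 25th percentile of all mean signals. Those of psbM, atpB and atpE were among the brightest, at the 99.96th to 99.98th percentile, near the upper end of the range. The wild-type DMSO replicate 2 array deviated from its group mean by 0.18 on average over all probe sets, against 0.087 to 0.14 for the other 8 arrays. Over the 46 genes, amp1-13 replicate 1 was the lowest of its group, with a median deviation of -0.30. Results that changed without either array are given with and without it.

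With hyperphyllin 11 of the 46 genes were higher than in wild-type DMSO, 3 were lower and 32 did not pass. Among all probe sets 13.3% were called higher, 15.6% lower and 28.9% in either direction. In amp1-13, 21 genes were higher, none was lower and 25 did not pass, where 10.1% of all probe sets were called higher, 12.5% lower and 22.5% in either direction. The median log2 difference of the 46 genes was 0.19 with hyperphyllin and 0.46 in amp1-13, against a median of -0.03 over all probe sets in each comparison. Set directly against amp1-13, hyperphyllin gave 6 lower genes and none higher, where 3.35% of all probe sets were called lower, 2.98% higher and 6.33% in either direction. The log2 difference was negative for 42 of the 46 genes, with a median of -0.30 against 0.01 over all probe sets. The 46 genes tended to move together from array to array. Their deviations from the group means had a median pairwise correlation of 0.477 over the 9 arrays. Counts of genes or of signs are therefore not counts of separate observations.

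The calls fell into a few patterns. A set of 10 genes was higher in both comparisons with wild-type DMSO: psbB, psbC, psbD, psbZ, psaA, psaI, ycf3, ycf4, petA and rbcL. Another 10 were called higher in amp1-13 alone (psbH, psbN, psbT, psaB, petB, atpA, atpF, atpI, ndhH and ndhK), which does not show that they differed between hyperphyllin and amp1-13. The gene psaJ was called higher with hyperphyllin alone, psbA and psbM were called lower with hyperphyllin alone, and ndhJ was lower with hyperphyllin and higher in amp1-13. The other 22 genes passed in neither comparison. The 3 arrays of each group did not overlap with those of wild-type DMSO for 15 genes above and 7 below with hyperphyllin, where 16.7% of all probe sets lay above, 22.8% below and 39.5% on either side. In amp1-13 22 genes lay above and none below, where 14.9% of all probe sets lay above, 20.4% below and 35.3% on either side. Between hyperphyllin and amp1-13 no gene lay above and 19 lay below, where 14.3% of all probe sets lay above, 12.6% below and 26.9% on either side.

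**Figure D1:**
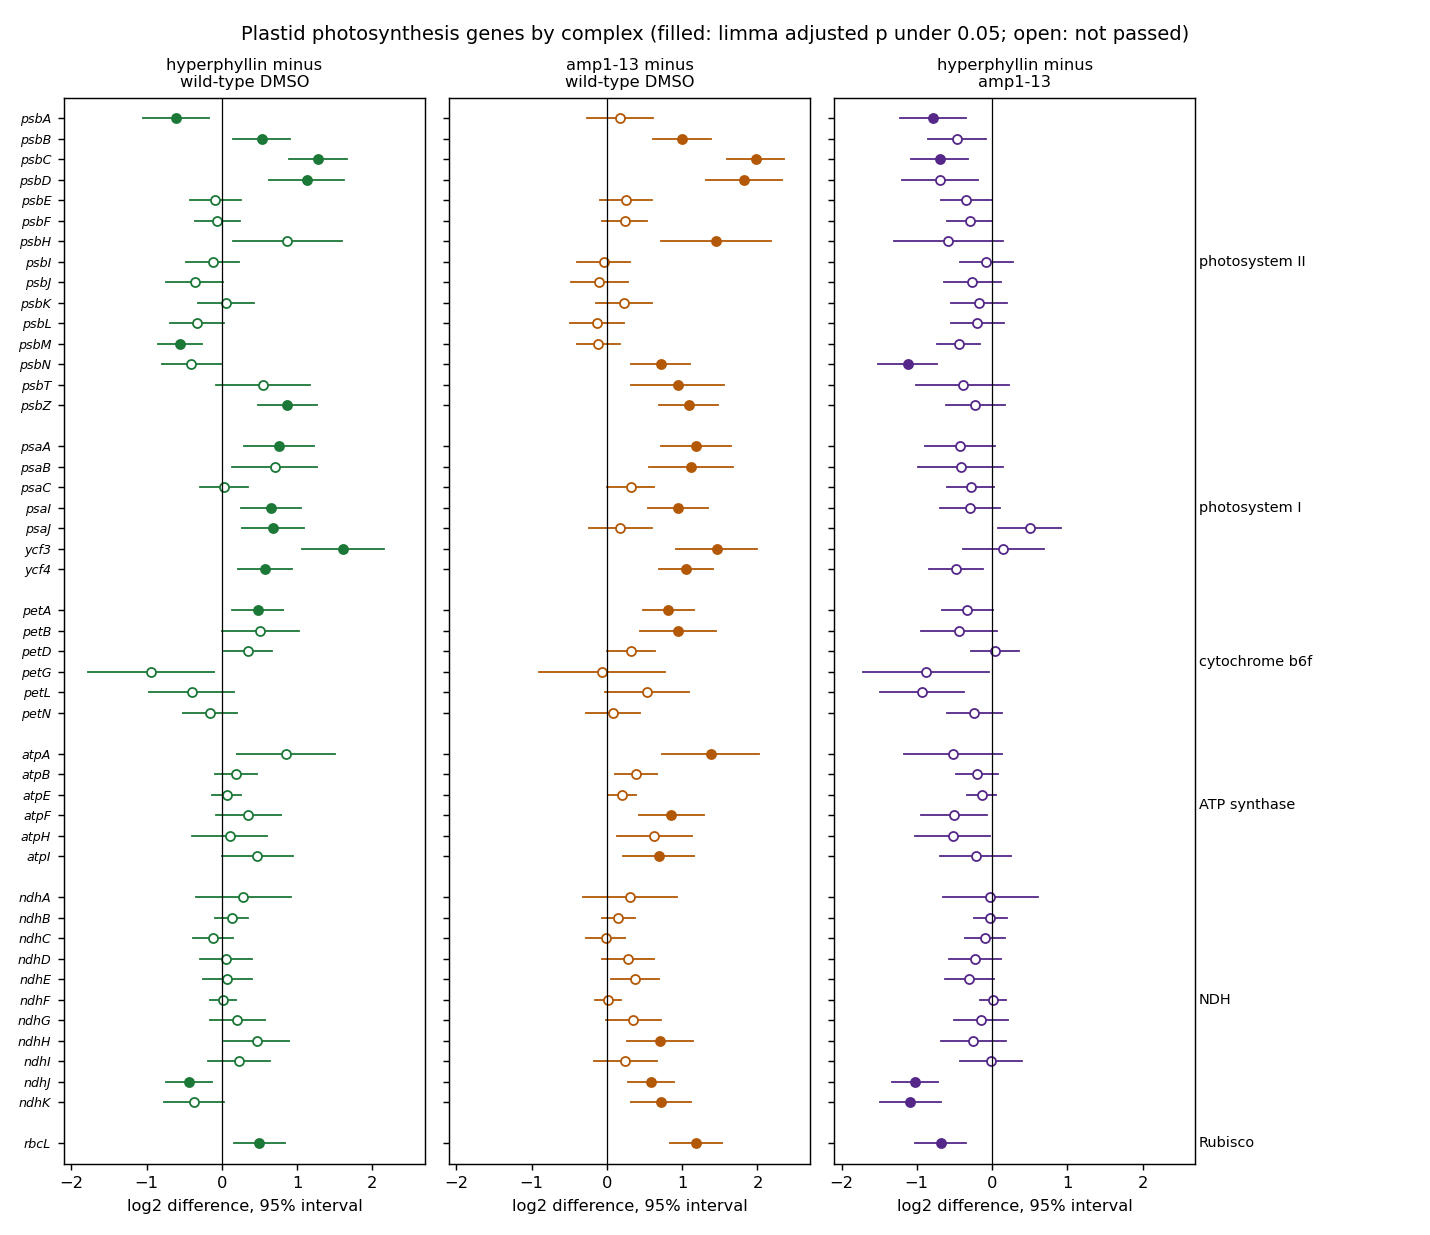
Log2 difference (x axis, with its 95% interval) of each of the 46 genes (y axis, grouped by complex) in 3 panels, which set hyperphyllin against wild-type DMSO, amp1-13 against wild-type DMSO, and hyperphyllin against amp1-13. Filled points passed the threshold; most points lie right of 0 in the amp1-13 panel, where 40 of 46 are positive, and 42 of 46 lie left of 0 in the third.

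Counts depended on single arrays, for the 46 genes and for all probe sets. Fits without 1 array called 1921 to 4422 probe sets higher with hyperphyllin (3023 with every array) and 1960 to 4447 lower (3544). They called 1295 to 3864 higher in amp1-13 (2289) and 309 to 1133 lower with hyperphyllin than in amp1-13 (762). The counts that follow are of the 46 genes, and a move in them is not by itself particular to these genes. Without wild-type DMSO replicate 2, 18 genes were higher and 5 lower with hyperphyllin, 26 were higher in amp1-13, and 9 were lower with hyperphyllin than in amp1-13. Without amp1-13 replicate 1, amp1-13 had 26 higher genes, and 11 were lower with hyperphyllin than in amp1-13. Without wild-type DMSO replicate 3 the counts were 4 higher and 1 lower with hyperphyllin, and 12 higher in amp1-13. Leaving out wild-type DMSO replicate 1 gave 5 higher and 1 lower with hyperphyllin. Leaving out 1 hyperphyllin array gave 4, 6 and 4 higher and 1 lower each time, and 3 lower than in amp1-13 each time. Without amp1-13 replicate 2, 12 genes were higher in amp1-13, and without amp1-13 replicate 2 or 3, 3 genes were lower with hyperphyllin than in amp1-13. In none of these fits was a gene lower in amp1-13 than in wild-type DMSO, or higher with hyperphyllin than in amp1-13.

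Photosystem II splits water and passes electrons to plastoquinone. Of its 15 plastid genes, 4 were higher and 2 lower with hyperphyllin, 7 were higher in amp1-13, and 3 were lower with hyperphyllin than in amp1-13. With hyperphyllin that is 26.7% higher and 13.3% lower, against 13.3% and 15.6% of all probe sets. In amp1-13 46.7% were higher, against 10.1% of all probe sets. Lower with hyperphyllin than in amp1-13 were 20%, against 3.35% of all probe sets. The genes of the reaction centre did not move together. The D2 protein gene psbD and the psbA gene of its partner D1 lay on opposite sides of wild-type DMSO with hyperphyllin. The inner antenna genes psbB (CP47) and psbC (CP43) were higher in both comparisons.

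The psbC signal was 10.28, 10.01 and 10.36 with hyperphyllin, 10.67, 11.21 and 10.87 in amp1-13, and 8.87, 9.21 and 8.73 in wild-type DMSO. The 3 groups did not overlap, with amp1-13 highest and wild-type DMSO lowest. This was a log2 difference of 1.28 ± 0.17 with hyperphyllin (2.43-fold, adjusted p = 0.000861) and 1.98 ± 0.17 in amp1-13 (3.93-fold, adjusted p = 0.000309). Hyperphyllin against amp1-13 gave -0.70 ± 0.17 (1.62-fold lower, adjusted p = 0.0416). The psbD signal was 8.06, 7.71 and 8.35 with hyperphyllin, 8.38, 9.10 and 8.72 in amp1-13, and 6.69, 7.24 and 6.80 in wild-type DMSO. Again the 3 groups did not overlap and kept that order. The log2 differences of psbD were 1.13 ± 0.22 with hyperphyllin (2.18-fold, adjusted p = 0.00576) and 1.82 ± 0.22 in amp1-13 (3.53-fold, adjusted p = 0.00109). Between hyperphyllin and amp1-13 psbD did not pass, at -0.69 (95% interval -1.19 to -0.19, adjusted p = 0.113).

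The small subunit gene psbZ, which follows psbC, gave 11.07, 10.83 and 10.97 with hyperphyllin, 10.89, 11.29 and 11.35 in amp1-13, and 9.93, 10.46 and 9.88 in wild-type DMSO. Both groups lay above wild-type DMSO and overlapped with each other. This gave a log2 difference of 0.87 ± 0.17 with hyperphyllin (1.82-fold, adjusted p = 0.0062) and 1.09 ± 0.17 in amp1-13 (2.13-fold, adjusted p = 0.00327), and -0.22 ± 0.17 between them (adjusted p = 0.594). The psbB signal was 7.08, 6.92 and 7.20 with hyperphyllin, 7.18, 7.88 and 7.54 in amp1-13, and 6.35, 6.65 and 6.63 in wild-type DMSO. Every treated or mutant array lay above every wild-type DMSO array. The log2 difference of psbB was 0.53 ± 0.17 with hyperphyllin (1.44-fold, adjusted p = 0.044) and 0.99 ± 0.17 in amp1-13 (1.99-fold, adjusted p = 0.00449).

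The psbA gene encodes D1, the reaction centre protein that is damaged by light and constantly replaced. Its signal was 10.30, 10.08 and 10.46 with hyperphyllin, 10.71, 11.38 and 11.12 in amp1-13, and 10.97, 10.57 and 11.15 in wild-type DMSO. The hyperphyllin arrays lay below all others, and amp1-13 overlapped with wild-type DMSO. In the fit the log2 difference was -0.61 ± 0.20 with hyperphyllin (1.53-fold lower, adjusted p = 0.0415), 0.17 ± 0.20 in amp1-13 (adjusted p = 0.573) and -0.79 ± 0.20 between hyperphyllin and amp1-13 (1.73-fold lower, adjusted p = 0.0445).

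The genes psbM, psbN and psbH are described here by array because of their values and not by the rule for naming genes. The small subunit gene psbM gave 13.51, 13.28 and 13.16 with hyperphyllin, 13.57, 13.72 and 13.99 in amp1-13, and 13.88, 13.80 and 13.93 in wild-type DMSO. Its hyperphyllin arrays were the lowest. Its log2 difference was -0.56 ± 0.13 with hyperphyllin (1.47-fold lower, adjusted p = 0.0115) and -0.11 ± 0.13 in amp1-13 (adjusted p = 0.579). The product of psbN takes part in assembling the reaction centre. Its signal was 7.08, 6.99 and 7.10 with hyperphyllin, 7.88, 8.56 and 8.09 in amp1-13, and 7.62, 7.20 and 7.56 in wild-type DMSO. The 3 groups did not overlap, with hyperphyllin lowest and amp1-13 highest. The psbN log2 difference was -0.41 ± 0.17 with hyperphyllin (adjusted p = 0.111), 0.71 ± 0.17 in amp1-13 (1.64-fold, adjusted p = 0.0183) and -1.12 ± 0.17 between them (2.17-fold lower, adjusted p = 0.00628).

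The phosphoprotein gene psbH gave 9.36, 9.09 and 9.16 with hyperphyllin, 9.44, 10.05 and 9.87 in amp1-13, and 7.60, 9.13 and 8.27 in wild-type DMSO. Wild-type DMSO replicate 2 lay within the hyperphyllin range, and amp1-13 lay above both groups. The log2 difference was 0.87 ± 0.32 with hyperphyllin (adjusted p = 0.0722) and 1.45 ± 0.32 in amp1-13 (2.73-fold, adjusted p = 0.013). The small subunit gene psbT had a log2 difference of 0.55 ± 0.28 with hyperphyllin (adjusted p = 0.173) and 0.94 ± 0.28 in amp1-13 (1.92-fold, adjusted p = 0.0378), though its amp1-13 and wild-type DMSO arrays overlapped.

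None of the other 6 photosystem II genes passed. They are psbE and psbF, for the subunits of cytochrome b559, and psbI, psbJ, psbK and psbL, for small subunits. With hyperphyllin their log2 differences ran from -0.36 for psbJ (adjusted p = 0.143) to 0.06 for psbK, and the hyperphyllin arrays of psbJ and psbL lay below those of wild-type DMSO. In amp1-13 they ran from -0.13 for psbL to 0.25 for psbE.

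Several photosystem II calls changed when 1 array was left out, also where that array was outside the comparison. Leaving out an array of the third group keeps the log2 difference and changes only the estimate of spread and the adjusted p. With hyperphyllin, the calls of psbA and psbB were lost without any one of the hyperphyllin arrays, amp1-13 replicate 3 or wild-type DMSO replicate 1 or 3 (highest adjusted p = 0.151 for psbA and 0.143 for psbB). Against amp1-13, the calls of psbA and psbC were lost without any one array other than amp1-13 replicate 1 and wild-type DMSO replicate 2 (highest adjusted p = 0.185 and 0.166). In amp1-13, psbH was lost without amp1-13 replicate 2 or wild-type DMSO replicate 3 (highest adjusted p = 0.0554), and psbT also without hyperphyllin replicate 3, amp1-13 replicate 3 or wild-type DMSO replicate 1 (highest adjusted p = 0.13). Without wild-type DMSO replicate 2, psbH passed as higher (adjusted p = 0.00217) and psbN as lower with hyperphyllin (adjusted p = 0.0377), and psbF passed as higher in amp1-13 (adjusted p = 0.0442). Without amp1-13 replicate 1, psbB passed as lower with hyperphyllin than in amp1-13 (adjusted p = 0.0411).

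**Figure D2:**
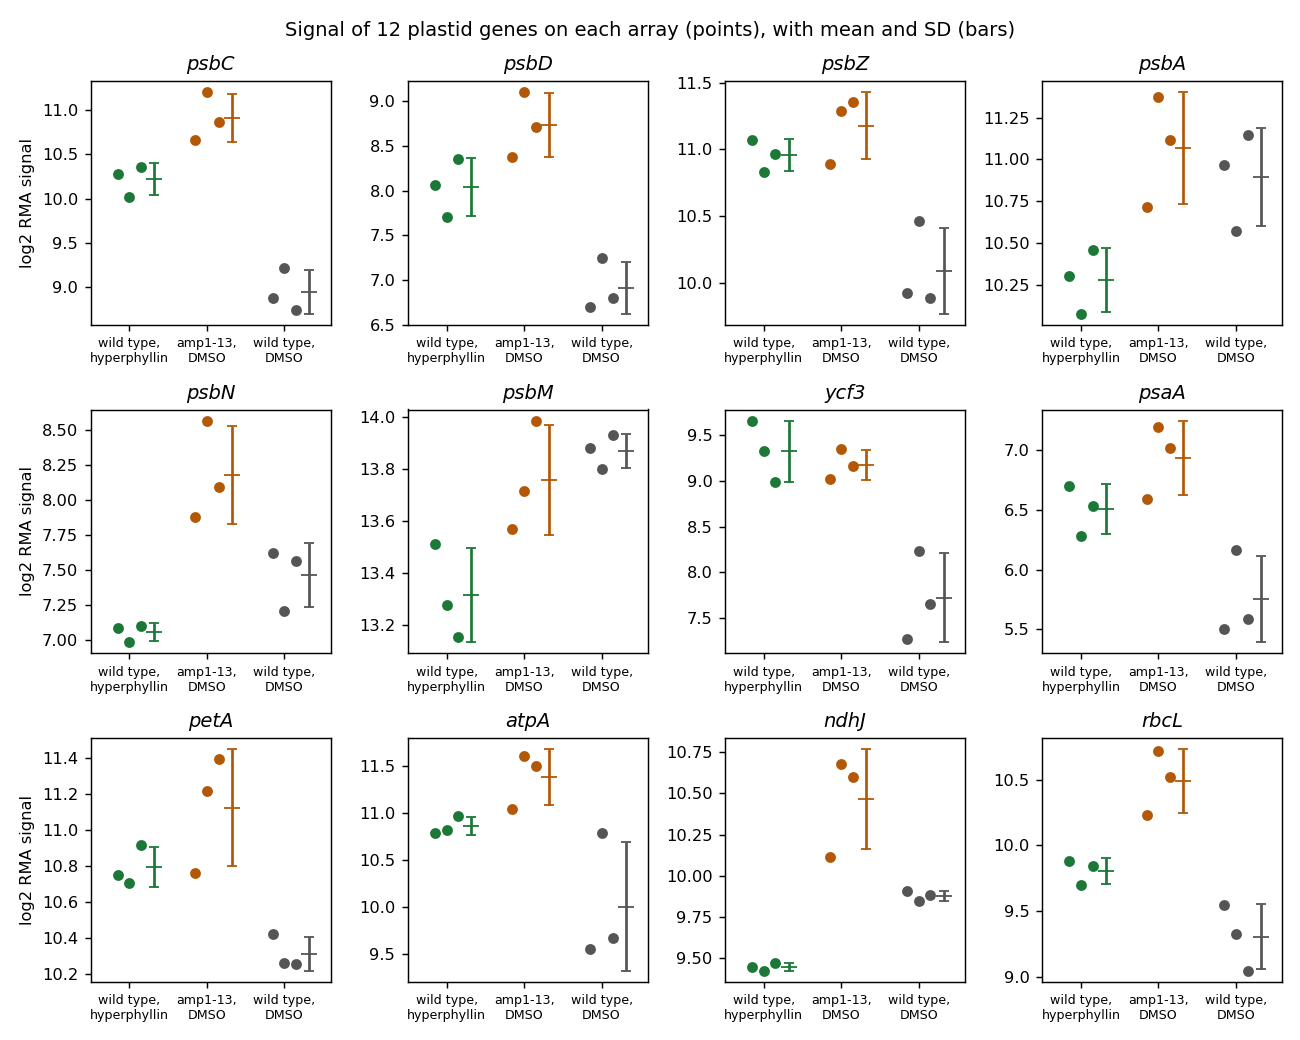
Log2 RMA signal (y axis) of 12 of the genes on each array (points), with the group mean and SD (bars, n = 3), for hyperphyllin, amp1-13 and wild-type DMSO from left to right; each panel has its own y range. For psbC and psbD both left groups lie above wild-type DMSO; for psbA and psbM the hyperphyllin arrays lie below the other groups, and for psbN and ndhJ hyperphyllin lies lowest and amp1-13 highest.

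Photosystem I uses light to reduce ferredoxin. Its 7 genes, with the assembly factor genes ycf3 and ycf4 counted among them, included 5 called higher with hyperphyllin and 5 in amp1-13. That is 71.4% in each comparison, where 13.3% and 10.1% of all probe sets were called higher. The genes psaA, psaI, ycf3 and ycf4 passed in both. No photosystem I gene was lower in either comparison, and none passed between hyperphyllin and amp1-13. The median log2 difference was 0.68 with hyperphyllin and 1.05 in amp1-13, above the 0.19 and 0.46 over all 46 genes.

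The reaction centre genes psaA and psaB encode the large proteins that bind most of the photosystem's chlorophyll. The psaA signal was 6.70, 6.29 and 6.54 with hyperphyllin, 6.59, 7.20 and 7.02 in amp1-13, and 5.51, 6.17 and 5.59 in wild-type DMSO. Both groups lay above wild-type DMSO, whose replicate 2 came close to the lowest hyperphyllin array. This gave a log2 difference of 0.75 ± 0.21 with hyperphyllin (1.69-fold, adjusted p = 0.0242) and 1.18 ± 0.21 in amp1-13 (2.27-fold, adjusted p = 0.00496). The psaB signal was 12.41, 12.39 and 12.47 with hyperphyllin, 12.69, 13.00 and 12.83 in amp1-13, and 11.24, 12.42 and 11.51 in wild-type DMSO. Here wild-type DMSO replicate 2 lay among the hyperphyllin arrays, and amp1-13 lay above both groups. The log2 difference of psaB was 0.70 ± 0.25 with hyperphyllin (adjusted p = 0.0627) and 1.12 ± 0.25 in amp1-13 (2.17-fold, adjusted p = 0.0131).

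The assembly factor gene ycf3 had the largest log2 difference with hyperphyllin among the 46 genes. Its signal was 9.66, 9.33 and 8.99 with hyperphyllin, 9.02, 9.35 and 9.16 in amp1-13, and 7.27, 8.24 and 7.65 in wild-type DMSO. The hyperphyllin and amp1-13 arrays overlapped, and all lay above wild-type DMSO. In the fit the log2 difference was 1.61 ± 0.24 with hyperphyllin (3.05-fold, adjusted p = 0.00152), 1.46 ± 0.24 in amp1-13 (2.75-fold, adjusted p = 0.00382) and 0.15 between them (95% interval -0.39 to 0.69, adjusted p = 0.838). The second assembly factor gene, ycf4, gave 6.73, 6.74 and 6.73 with hyperphyllin, 6.85, 7.57 and 7.21 in amp1-13, and 6.02, 6.26 and 6.19 in wild-type DMSO. The 3 groups did not overlap, with hyperphyllin between amp1-13 and wild-type DMSO. The ycf4 log2 difference was 0.58 ± 0.16 with hyperphyllin (1.49-fold, adjusted p = 0.0244) and 1.05 ± 0.16 in amp1-13 (2.07-fold, adjusted p = 0.00261).

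The small subunit gene psaI was also higher in both, with log2 differences of 0.65 ± 0.18 with hyperphyllin (adjusted p = 0.0237) and 0.94 ± 0.18 in amp1-13 (adjusted p = 0.00672). The other small subunit gene, psaJ, given by array because of its values, had signals of 9.93, 9.56 and 9.93 with hyperphyllin, 8.96, 9.27 and 9.69 in amp1-13, and 8.94, 9.26 and 9.19 in wild-type DMSO. Its hyperphyllin arrays lay above wild-type DMSO, and its amp1-13 arrays overlapped with both. Its log2 difference was 0.68 ± 0.19 with hyperphyllin (1.60-fold, adjusted p = 0.0233), 0.18 ± 0.19 in amp1-13 (adjusted p = 0.538) and 0.50 ± 0.19 between them (adjusted p = 0.168). For psaC, which encodes the iron-sulfur protein that passes electrons to ferredoxin, the log2 difference was 0.03 ± 0.14 with hyperphyllin (adjusted p = 0.904) and 0.32 ± 0.14 in amp1-13 (adjusted p = 0.14).

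The hyperphyllin calls of psaA and psaJ were lost without hyperphyllin replicate 1 or 3 or wild-type DMSO replicate 1 or 3 (highest adjusted p = 0.0926 and 0.0824), and those of psaI and ycf4 also without hyperphyllin replicate 2 (highest adjusted p = 0.0942 and 0.0831). In amp1-13 psaB was lost without amp1-13 replicate 2 or wild-type DMSO replicate 3 (highest adjusted p = 0.0586). With wild-type DMSO replicate 2 left out, psaB passed as higher with hyperphyllin (adjusted p = 0.000283) and as lower with hyperphyllin than in amp1-13 (adjusted p = 0.0412). Without amp1-13 replicate 1, ycf4 passed as lower with hyperphyllin than in amp1-13 (adjusted p = 0.0204).

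The cytochrome b6f complex carries electrons between the photosystems. Of its 6 genes, petA was higher in both comparisons and petB in amp1-13, and none was lower or passed between hyperphyllin and amp1-13. That is 16.7% higher with hyperphyllin and 33.3% in amp1-13, where 13.3% and 10.1% of all probe sets were called higher. For petA, the cytochrome f gene, the signal was 10.75, 10.71 and 10.92 with hyperphyllin, 10.76, 11.22 and 11.39 in amp1-13, and 10.42, 10.26 and 10.25 in wild-type DMSO. All hyperphyllin and amp1-13 arrays lay above those of wild-type DMSO. The log2 difference was 0.48 ± 0.15 with hyperphyllin (1.39-fold, adjusted p = 0.04) and 0.81 ± 0.15 in amp1-13 (1.76-fold, adjusted p = 0.00627). For petB, the cytochrome b6 gene, it was 12.54, 12.13 and 12.59 with hyperphyllin, 12.71, 12.91 and 12.94 in amp1-13, and 11.43, 12.42 and 11.87 in wild-type DMSO. The amp1-13 arrays lay above both other groups, which overlapped through wild-type DMSO replicate 2. The petB log2 difference was 0.51 ± 0.23 with hyperphyllin (adjusted p = 0.12) and 0.95 ± 0.23 in amp1-13 (1.93-fold, adjusted p = 0.0167).

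Of the other members, petD, for subunit IV, had a log2 difference of 0.35 ± 0.14 with hyperphyllin (adjusted p = 0.0967) and 0.31 ± 0.14 in amp1-13 (adjusted p = 0.145). The small subunit genes petG, petL and petN also did not pass. Shown because of its values, petL gave 6.88, 6.57 and 6.32 with hyperphyllin, 6.99, 7.87 and 7.71 in amp1-13, and 7.20, 6.61 and 7.17 in wild-type DMSO. Hyperphyllin lay below amp1-13 without overlap, and wild-type DMSO overlapped with both. Between hyperphyllin and amp1-13 the petL log2 difference was -0.93 ± 0.25 (adjusted p = 0.0606). For petG the signals were 4.86, 4.75 and 4.21 with hyperphyllin, 4.84, 5.96 and 5.64 in amp1-13, and 6.07, 4.74 and 5.83 in wild-type DMSO. The low wild-type value was that of replicate 2. The petG log2 difference was -0.94 ± 0.37 with hyperphyllin (adjusted p = 0.0902) and -0.06 ± 0.37 in amp1-13.

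The petA call with hyperphyllin was lost without any one array other than amp1-13 replicates 1 and 3 (highest adjusted p = 0.121). The petB call in amp1-13 was lost without amp1-13 replicate 2 or 3 or wild-type DMSO replicate 3 (highest adjusted p = 0.063). Without wild-type DMSO replicate 2, petB passed as higher (adjusted p = 0.0071) and petG as lower with hyperphyllin (adjusted p = 0.0085), and petL as lower with hyperphyllin than in amp1-13 (adjusted p = 0.0349). Without amp1-13 replicate 1, petD passed as higher with hyperphyllin (adjusted p = 0.0347) and in amp1-13 (adjusted p = 0.0289), petL as higher in amp1-13 (adjusted p = 0.0437), and petA and petL as lower with hyperphyllin than in amp1-13 (adjusted p = 0.0332 and 0.014).

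The plastid ATP synthase makes ATP from the proton gradient across the thylakoid membrane. Of its 6 genes none passed with hyperphyllin, 3 were higher in amp1-13, and none passed between hyperphyllin and amp1-13. Among all probe sets 13.3% were called higher with hyperphyllin and 10.1% in amp1-13. For 5 of the 6 genes the hyperphyllin arrays lay entirely below those of amp1-13, as for 12.6% of all probe sets. The atpI-atpH-atpF-atpA transcription unit holds 4 of the 6, so these are not separate observations. All 6 log2 differences were positive against wild-type DMSO, with medians of 0.27 with hyperphyllin and 0.66 in amp1-13.

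The alpha subunit gene atpA gave 10.79, 10.81 and 10.96 with hyperphyllin, 11.04, 11.60 and 11.50 in amp1-13, and 9.55, 10.79 and 9.67 in wild-type DMSO. Wild-type DMSO replicate 2 lay more than 1 log2 unit above the other wild-type arrays, just under the lowest hyperphyllin array. The atpA log2 difference was 0.85 ± 0.29 with hyperphyllin (adjusted p = 0.0529) and 1.38 ± 0.29 in amp1-13 (2.60-fold, adjusted p = 0.0101). For atpF, encoding a stator subunit, the signals were 5.87, 5.56 and 5.71 with hyperphyllin, 6.0, 6.27 and 6.39 in amp1-13, and 5.01, 5.81 and 5.27 in wild-type DMSO. The amp1-13 arrays were the highest, and wild-type DMSO replicate 2 lay within the hyperphyllin range. The atpF log2 difference was 0.35 ± 0.19 with hyperphyllin (adjusted p = 0.213) and 0.86 ± 0.19 in amp1-13 (1.81-fold, adjusted p = 0.0138).

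For atpI, encoding the membrane subunit through which protons pass, the signals were 4.92, 4.89 and 4.87 with hyperphyllin, 4.64, 5.09 and 5.60 in amp1-13, and 4.18, 4.50 and 4.57 in wild-type DMSO. Both groups lay above wild-type DMSO, and the amp1-13 values were the most spread. In the fit the log2 difference was 0.47 ± 0.21 with hyperphyllin (adjusted p = 0.123) and 0.69 ± 0.21 in amp1-13 (1.61-fold, adjusted p = 0.043). The beta subunit gene atpB gave 13.66, 13.47 and 13.68 with hyperphyllin, 13.69, 13.85 and 13.88 in amp1-13, and 13.25, 13.67 and 13.34 in wild-type DMSO. Its amp1-13 arrays lay above both other groups. The atpB log2 difference was 0.18 ± 0.12 with hyperphyllin (adjusted p = 0.317) and 0.38 ± 0.12 in amp1-13 (adjusted p = 0.0526). The epsilon subunit gene atpE and the membrane ring gene atpH did not pass, with log2 differences of 0.06 ± 0.08 and 0.11 ± 0.22 with hyperphyllin and 0.20 ± 0.08 and 0.63 ± 0.22 in amp1-13.

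The amp1-13 call of atpF was lost without amp1-13 replicate 2 or wild-type DMSO replicate 3 (highest adjusted p = 0.058). That of atpI was lost without any one array other than amp1-13 replicate 1 and wild-type DMSO replicate 2 (highest adjusted p = 0.14), and its log2 difference was 0.44 without amp1-13 replicate 3. With wild-type DMSO replicate 2 left out, atpA (adjusted p = 0.000456), atpB (adjusted p = 0.0397) and atpF (adjusted p = 0.0123) passed as higher with hyperphyllin. In that fit atpB, atpE and atpH passed as higher in amp1-13 (adjusted p = 0.0049, 0.035 and 0.0476), and atpF as lower with hyperphyllin than in amp1-13 (adjusted p = 0.043). Without amp1-13 replicate 1 or 3, atpI passed as higher with hyperphyllin (adjusted p = 0.0492 and 0.0429).

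The NDH complex sends electrons from the acceptor side of photosystem I back to plastoquinone, in cyclic electron flow. Of its 11 plastid genes, 1 was lower and none higher with hyperphyllin, and 3 were higher in amp1-13. With hyperphyllin 9.09% were called in either direction, fewer than the 28.9% of all probe sets. In amp1-13 27.3% were higher, against 10.1% of all probe sets. The genes ndhJ and ndhK were 2 of the 6 genes called lower with hyperphyllin than in amp1-13. They make 18.2% of the NDH genes, against 3.35% of all probe sets. The median log2 difference of the 11 genes was 0.07 with hyperphyllin and 0.31 in amp1-13.

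The peripheral subunit gene ndhJ gave 9.45, 9.42 and 9.47 with hyperphyllin, 10.12, 10.68 and 10.60 in amp1-13, and 9.91, 9.85 and 9.88 in wild-type DMSO. The groups were separate, with hyperphyllin lowest and amp1-13 highest. The ndhJ log2 difference was -0.43 ± 0.14 with hyperphyllin (1.35-fold lower, adjusted p = 0.0392), 0.59 ± 0.14 in amp1-13 (1.50-fold, adjusted p = 0.0148) and -1.02 ± 0.14 between them (2.03-fold lower, adjusted p = 0.00323). Its neighbour ndhK, for another peripheral subunit, gave 8.44, 8.50 and 8.45 with hyperphyllin, 9.06, 9.88 and 9.70 in amp1-13, and 8.78, 8.82 and 8.89 in wild-type DMSO. The groups stood in the same order without overlap. The ndhK log2 difference was -0.37 ± 0.18 with hyperphyllin (adjusted p = 0.155), 0.71 ± 0.18 in amp1-13 (1.64-fold, adjusted p = 0.0202) and -1.09 ± 0.18 between them (2.12-fold lower, adjusted p = 0.008). The third gene of that cluster, the membrane subunit gene ndhC, did not pass, at -0.11 with hyperphyllin (95% interval -0.38 to 0.15) and -0.02 in amp1-13 (95% interval -0.28 to 0.25).

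The dim probe set of the peripheral subunit gene ndhH gave 4.07, 4.03 and 4.37 with hyperphyllin, 4.16, 4.52 and 4.52 in amp1-13, and 3.28, 4.07 and 3.73 in wild-type DMSO. The amp1-13 arrays lay above wild-type DMSO, and the hyperphyllin arrays overlapped with both. The log2 difference was 0.46 ± 0.19 with hyperphyllin (adjusted p = 0.107) and 0.71 ± 0.19 in amp1-13 (1.63-fold, adjusted p = 0.0292). The membrane subunit gene ndhB, which has identical copies in both inverted repeats and was read by a probe set whose suffix marks possible cross-hybridisation, gave 4.31, 4.30 and 4.30 with hyperphyllin, 4.41, 4.27 and 4.30 in amp1-13, and 4.29, 4.24 and 3.99 in wild-type DMSO. The values lay within a narrow range and did not pass (adjusted p = 0.357 with hyperphyllin and 0.297 in amp1-13). For ndhF, another membrane subunit, the values were 3.64, 3.52 and 3.54 with hyperphyllin, 3.55, 3.60 and 3.51 in amp1-13, and 3.57, 3.52 and 3.55 in wild-type DMSO. At the 7.94th percentile of mean signal, no difference in ndhF was detectable (adjusted p = 0.875 with hyperphyllin and 0.933 in amp1-13). None of ndhA, ndhD, ndhE, ndhG and ndhI passed, with log2 differences from 0.05 to 0.29 with hyperphyllin and from 0.24 to 0.37 in amp1-13.

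The hyperphyllin call of ndhJ was lost without any one hyperphyllin array or wild-type DMSO replicate 1 or 3 (highest adjusted p = 0.106). In amp1-13 ndhJ was lost without amp1-13 replicate 2 or 3 or wild-type DMSO replicate 3 (highest adjusted p = 0.0571), and ndhK and ndhH also without wild-type DMSO replicate 1 (highest adjusted p = 0.0694 and 0.0993). Both ndhJ and ndhK remained lower with hyperphyllin than in amp1-13 in all 9 fits without 1 array. Without wild-type DMSO replicate 2, ndhA passed as higher with hyperphyllin (adjusted p = 0.042) and in amp1-13 (adjusted p = 0.0403), and ndhH with hyperphyllin (adjusted p = 0.0167). Without amp1-13 replicate 1, ndhK passed as lower with hyperphyllin (adjusted p = 0.0158), ndhD, ndhE and ndhG as higher in amp1-13 (adjusted p = 0.0164, 0.0299 and 0.0484), and ndhD as lower with hyperphyllin than in amp1-13 (adjusted p = 0.0364).

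Rubisco fixes carbon dioxide, and its large subunit is encoded by rbcL. The rbcL signal was 9.88, 9.69 and 9.84 with hyperphyllin, 10.23, 10.72 and 10.52 in amp1-13, and 9.54, 9.33 and 9.05 in wild-type DMSO. The 3 groups did not overlap, with amp1-13 highest. This gave a log2 difference of 0.50 ± 0.15 with hyperphyllin (1.41-fold, adjusted p = 0.0362), 1.18 ± 0.15 in amp1-13 (2.27-fold, adjusted p = 0.00136) and -0.68 ± 0.15 between them (1.61-fold lower, adjusted p = 0.03). The hyperphyllin call was lost without any one hyperphyllin array, amp1-13 replicate 3 or wild-type DMSO replicate 3 (highest adjusted p = 0.132). The difference between hyperphyllin and amp1-13 lost its call without any one hyperphyllin array or amp1-13 replicate 2 or 3 (highest adjusted p = 0.134).

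The complexes can also be followed array by array, as the median over genes of the signal minus each gene's wild-type DMSO mean. For photosystem I this median was 0.69, 0.58 and 0.75 on the hyperphyllin arrays, 0.69, 1.28 and 1.11 on the amp1-13 arrays, and -0.20, 0.30 and -0.07 on the wild-type DMSO arrays. All hyperphyllin and amp1-13 arrays lay above wild-type DMSO, and amp1-13 replicate 1 lay within the hyperphyllin range. For photosystem II the median was -0.01, 0.13 and 0.05 with hyperphyllin, 0.08, 0.48 and 0.39 in amp1-13, and -0.19, 0.25 and -0.02 in wild-type DMSO. The hyperphyllin arrays lay within the wild-type range; this complex held genes called in both directions. For the ATP synthase it was 0.37, 0.15 and 0.30 with hyperphyllin, 0.29, 0.76 and 0.87 in amp1-13, and -0.29, 0.23 and -0.06 in wild-type DMSO. Here wild-type DMSO replicate 2 reached the hyperphyllin range, and amp1-13 lay above wild-type DMSO.

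**Figure D3:**
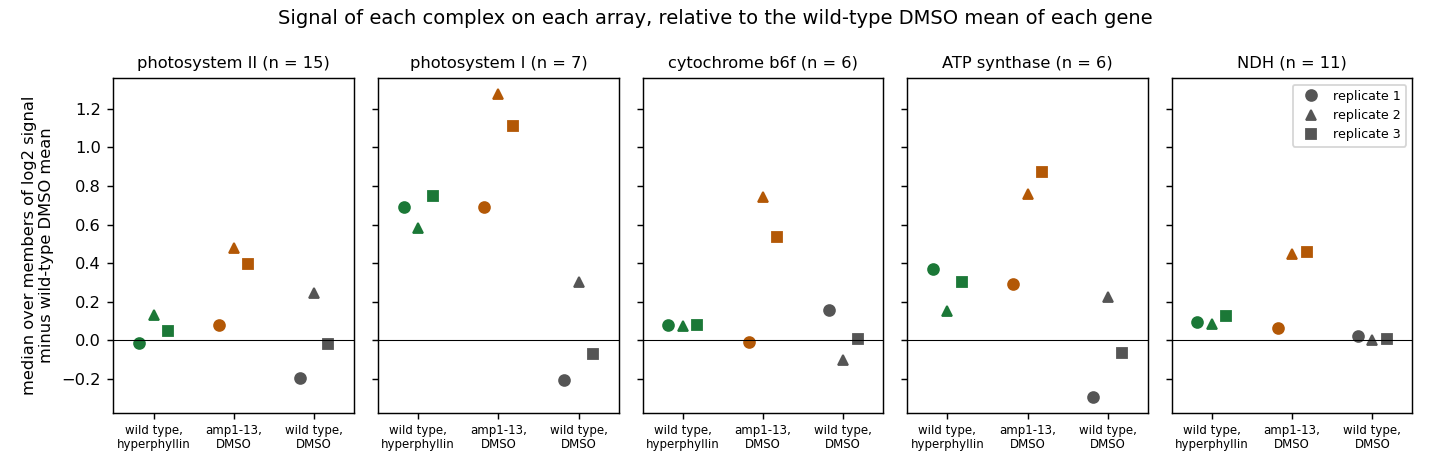
Median over the genes of each complex of the log2 signal minus the wild-type DMSO mean of each gene (y axis), for each array (markers show the replicate number), with hyperphyllin, amp1-13 and wild-type DMSO from left to right. The hyperphyllin arrays of photosystem I, at 0.58 to 0.75, lie above all wild-type DMSO arrays, and amp1-13 replicate 1 is the lowest amp1-13 array in each complex.

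Genes of 1 transcription unit can be transcribed together, so they are not independent of each other. The units were assigned from textbook knowledge of the plastid genome and not from these data. All 3 genes of the psbD-psbC-psbZ unit were higher in both comparisons. This cluster includes the psbD promoter known for its response to blue light through a nuclear-encoded sigma factor. All 3 photosynthesis genes of the psaI-ycf4-petA unit were higher in both as well, and cemA, which lies between ycf4 and petA and encodes an envelope protein, had log2 differences of 0.80 with hyperphyllin (adjusted p = 0.0405) and 1.36 in amp1-13 (adjusted p = 0.00617). The counts by unit stand beside 13.3% of all probe sets called higher with hyperphyllin and 10.1% in amp1-13. In the psbB-psbT-psbH-petB-petD unit 1 of 5 genes passed with hyperphyllin and 4 of 5 in amp1-13. The psbN gene lies within this unit on the opposite strand, and its hyperphyllin arrays were below wild-type DMSO, whereas all 5 genes of the unit had positive differences. Which strand the psbN probe set reads was not checked, so its signal may hold RNA from either strand.

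In the atpI-atpH-atpF-atpA unit none of the 4 genes passed with hyperphyllin and 3 passed in amp1-13. None of the 4 genes of the psbE-psbF-psbL-psbJ unit passed in either comparison. In the ndhC-ndhK-ndhJ unit, 2 of 3 genes were lower with hyperphyllin than in amp1-13, where 3.35% of all probe sets were. Genes of the petL-petG-psaJ unit differed among themselves with hyperphyllin, where psaJ was higher and petL and petG had negative differences that did not pass. Of the 7 genes from ndhH to ndhD, which include psaC, none passed with hyperphyllin and ndhH passed in amp1-13.

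**Figure D4:**
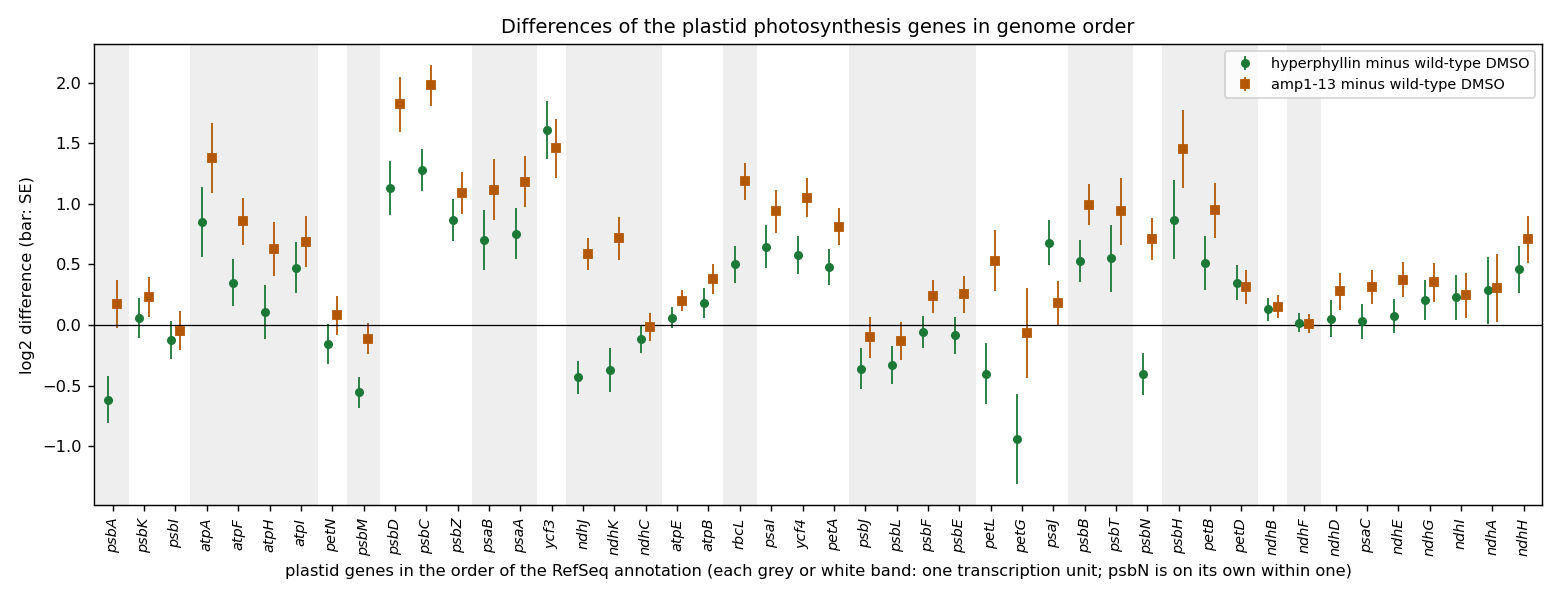
Log2 difference (y axis, bars show the SE) of hyperphyllin minus wild-type DMSO (circles) and amp1-13 minus wild-type DMSO (squares) for the 46 genes in their order along the plastid genome (x axis), with shaded and white bands for successive transcription units. The psbD-psbC-psbZ and psaI-ycf4-petA units have all their points above 0, and the ndhC-ndhK-ndhJ unit has hyperphyllin below and amp1-13 above 0 for ndhK and ndhJ.

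Other plastid genes were measured for 30 of 33 symbols, mainly ribosomal protein and RNA polymerase genes. With hyperphyllin 16 were higher and 1, the ribosomal protein gene rpl32 (log2 difference -0.51, adjusted p = 0.0477), was lower. In amp1-13, 17 were higher and none was lower, and none passed between hyperphyllin and amp1-13. That is 53.3% higher with hyperphyllin and 56.7% in amp1-13, where 13.3% and 10.1% of all probe sets were called higher. The median log2 difference of these other plastid genes was 0.52 with hyperphyllin and 0.68 in amp1-13. For the 46 photosynthesis genes it was 0.19 and 0.46. The ribosomal protein gene rpl16 had the largest differences, 1.65 ± 0.25 with hyperphyllin (adjusted p = 0.00161) and 1.77 ± 0.25 in amp1-13 (adjusted p = 0.00198). For rpl36 they were 1.30 ± 0.30 and 1.50 ± 0.30, and for rpl14 1.42 ± 0.21 and 1.23 ± 0.21, with hyperphyllin and in amp1-13. Of the 15 mitochondria-encoded genes measured out of 39, 1 was higher with hyperphyllin (ccb382) and 2 in amp1-13 (nad2 and ccb382), with medians of 0.00 and 0.15. That is 6.67% and 13.3% of them, where 13.3% and 10.1% of all probe sets were called higher. The nad2 probe set was dim, at the 16.4th percentile of mean signal. It was also called lower with hyperphyllin than in amp1-13 (log2 difference -0.57, adjusted p = 0.0338).

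The nuclear partners of the same complexes were covered thinly. Symbols were matched by name, and whether the unmatched ones have probe sets on the array was not checked. Of 57 symbols, 9 were matched to a probe set naming 1 gene. Of these 6 were higher and 1 lower with hyperphyllin, and 6 were higher and 1 lower in amp1-13. That is 66.7% higher and 11.1% lower in each comparison. Among all probe sets 13.3% were higher and 15.6% lower with hyperphyllin, and 10.1% and 12.5% in amp1-13. The photosystem II subunit gene PSBY (AT1G67740) had a log2 difference of 0.96 ± 0.13 with hyperphyllin (adjusted p = 0.000888) and 1.31 ± 0.13 in amp1-13 (adjusted p = 0.000442). The NDH subunit genes NdhL (AT1G70760) and NdhN (AT5G58260) were higher in both, at 0.83 and 0.77 with hyperphyllin and 1.09 and 0.88 in amp1-13, as was ATPC1 (AT4G04640), for the ATP synthase gamma subunit, at 0.48 and 0.64. The lower gene with hyperphyllin was NdhS (AT4G23890), for the NDH subunit at the ferredoxin-binding site, named here because of its value. Its signal was 9.39, 9.40 and 9.58 with hyperphyllin, 10.08, 10.22 and 10.15 in amp1-13, and 10.07, 9.99 and 9.80 in wild-type DMSO. The hyperphyllin arrays were the lowest, with a log2 difference of -0.50 ± 0.10 (adjusted p = 0.00604) against wild-type DMSO and -0.69 ± 0.10 (adjusted p = 0.00421) against amp1-13. The lower gene in amp1-13 was ATPC2 (AT1G15700), at -0.47 ± 0.13 (adjusted p = 0.033). Among 3 of 49 nuclear factors for plastid transcripts and assembly, LPA1 (AT1G02910), a photosystem II assembly factor, was higher with hyperphyllin, at 0.36 (adjusted p = 0.0244).

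The leaf mesophyll markers measured were called higher in the same 2 comparisons, and no measured gene of the root, shoot meristem or guard cell lists was. Those lists held few measured genes, and only 13.3% of all probe sets were called higher with hyperphyllin and 10.1% in amp1-13. The lists therefore cannot show that the rise was particular to mesophyll genes. The 3 leaf mesophyll genes measured of 21, RCA, PRK and SBPASE, were higher in both comparisons, with medians of 0.93 with hyperphyllin and 1.19 in amp1-13. Relative to the wild-type DMSO mean, their median was 0.83 to 1.05 on the hyperphyllin arrays, 1.07 to 1.25 on the amp1-13 arrays, and -0.21 to 0.17 on the wild-type DMSO arrays. The antenna genes measured, 3 of 26, all for the minor antenna protein CP29, included 2 higher with hyperphyllin and 3 higher in amp1-13. Neither of the 2 root hair genes measured of 28 root markers, EXPA7 and EXPA18, passed, and their median ran from -0.10 to 0.35 on the hyperphyllin arrays, from -0.09 to 0.66 on the amp1-13 arrays, and from -0.26 to 0.16 on the wild-type DMSO arrays. Neither of the 2 shoot meristem genes measured of 13 passed, with log2 differences of -0.01 and 0.03 with hyperphyllin and 0.60 and 0.00 in amp1-13 for CLV3 and UFO. Of 3 measured guard cell lineage genes of 12, FMA was lower in both, and MUTE and SPCH did not pass. Their log2 differences were 0.11 and 0.08 with hyperphyllin and 0.33 and -0.04 in amp1-13, and the median of the 3 genes was 0.08 with hyperphyllin and -0.04 in amp1-13. None of 8 epidermal and 15 vascular marker symbols was matched to a probe set, so these tissues have no values here. As for the nuclear partners, whether the unmatched symbols of these lists have probe sets on the array was not checked. The part of tissue composition in the differences of the plastid genes was not tested.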

How the data were processed

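RNA of 3 biological replicates in each of 3 groups was measured on 9 Affymetrix ATH1 arrays. The authors deposited log2 RMA signals, per the submitters' processing notes. The software and its probe definition are not stated in the labels. That the values are log2 was taken from their range, 2.77 to 14.3, and they were used unchanged. Of 22810 probe sets, 64 controls were left out.

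Differences were fitted with limma 3.58.1 (R 4.3.3) on all 9 arrays, with group means, default empirical Bayes moderation (6 residual and 3.45 prior degrees of freedom), two-sided tests and Benjamini-Hochberg adjustment over 22746 probe sets at 0.05. The fit was tested on simulated data. Arrays carry no count depth, so their number limits precision. The p-values set each group difference against the moderated spread between arrays of a group. No p below 0.1 is possible when 3 arrays are permuted against 3.

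Genes were named with the platform annotation, and gene order was taken from RefSeq TAIR10.1. No coordinates are given, as no build is named for these files. Other genes were matched by symbol, with the brightest probe set for each. The 46 genes, the lists and the tests were chosen with earlier results of these data known. Values by array were given for up to 3 called genes per complex with the smallest adjusted p and for the large subunits, and up to 4 called genes with the largest difference were named per other list. Alternatives were 2 filters on dim probe sets, a second quantile normalization, median centring, a variance prior with trend and robust estimation, array weights, a replicate block, fits of only the 2 groups compared, leaving out each array, and leaving out the probe set open to cross-hybridisation.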

Additional observations from a re-analysis of the deposited data

How the results depend on the processing

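Over up to 18 alternatives per gene, 5 of 14 hyperphyllin calls (psbC, psbD, psbM, psbZ and ycf3), 12 of 21 amp1-13 calls (atpA, petA, psaA, psaI, psbB, psbC, psbD, psbN, psbZ, rbcL, ycf3 and ycf4) and 3 of 6 calls of hyperphyllin against amp1-13 (ndhJ, ndhK and psbN) were kept in every one that held the gene, and no called difference changed sign. Among the 18, leaving out the probe set open to cross-hybridisation reused the main fit, so it could change no other gene's call. The filters on dim probe sets removed some genes, such as psaA, which had 17 alternatives. Signs changed in 50 alternative values of 27 gene differences that passed in neither fit, all with a size of at most 0.31 on the log2 scale. With array weights, which gave wild-type DMSO replicate 2 a weight of 0.227, 18 genes were higher and 7 lower with hyperphyllin, and 18 were lower than in amp1-13. With the replicate block 1 gene was lower with hyperphyllin and 3 were lower than in amp1-13. No pairing by replicate number was visible, though 3 arrays per group are too few to exclude it. Same-numbered deviations correlated at -0.197 to 0.226 and were over 0.1 in 3 of 9 pairs. Own numbers correlated best in 6 of 18 comparisons. Leaving out 1 array gave 4 to 18 higher and 1 to 5 lower with hyperphyllin, 12 to 26 higher in amp1-13, and 3 to 11 lower with hyperphyllin than in amp1-13. Over all probe sets, array weights called 4988 higher and 5497 lower with hyperphyllin (3023 and 3544 without weights), 4412 and 4951 in amp1-13 (2289 and 2835), and 1735 and 1688 between hyperphyllin and amp1-13 (677 and 762). Leaving out 1 array gave 1921 to 4422 higher and 1960 to 4447 lower with hyperphyllin, 1295 to 3864 and 1250 to 4078 in amp1-13, and 197 to 1094 and 309 to 1133 between hyperphyllin and amp1-13. The cause of these moves was not tested. Averaging several probe sets per gene was not run, as each gene had 1. Probe sets below the 25th percentile (ndhB, ndhF and ndhH) limit what could be detected.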
